A study of Mus musculus with 7 samples.

Results

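The genes described here are the Wnt family as measured in the inguinal fat pad of mice, a white fat depot under the skin: the secreted Wnt proteins, their receptors and the secreted proteins that block or strengthen the signal. They were taken from the deposited count table as every protein-coding gene whose symbol begins a Wnt, Fzd, Sfrp, Dkk or Rspo family name with its number, together with Lgr4 to Lgr6, Lrp5, Lrp6, Wif1 and Frzb. That gave 48 of the 55487 genes of the table: 19 ligands, 10 Frizzled receptors, 2 Lrp co-receptors, 10 soluble antagonists, 4 R-spondins and 3 Lgr receptors.

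The libraries came from NOD/ShiLtJ mice, an inbred strain that develops autoimmune diabetes. In 4 libraries, called imBAT after their titles, the mice had been given a fraction above 100 kDa of buffer conditioned by brown adipocytes (imBAT conditioned buffer), at 1.5 mg/kg body weight. In 3 libraries, called sham, they had been given the buffer KRBH. Mice entered the study at a blood glucose of 190 to 230 mg/dL, the fraction was injected under the skin for 7 days, and the fat was taken 2 to 8 weeks after that; neither the week for each library nor the sex and age of the mice is stated. The labels do not state that the libraries came from separate mice. Each title holds its own code of a number and letters, which the labels do not explain. The p-values below therefore rest on the spread among libraries, which may be technical.

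A Wnt protein carries a lipid that the enzyme Porcn attaches, leaves the cell with the carrier Wls, and binds a Frizzled receptor together with Lrp5 or Lrp6. The canonical branch then stabilises beta-catenin (Ctnnb1), which works in the nucleus with Tcf7, Lef1, Tcf7l1 or Tcf7l2, while other branches act on cell polarity and calcium. Sfrp proteins, Frzb and Wif1 bind Wnt proteins outside the cell, Dkk1, Dkk2 and Dkk4 act on Lrp5 and Lrp6, and R-spondins bound to Lgr4, Lgr5 or Lgr6 slow the removal of Frizzled receptors from the cell surface by Rnf43 and Znrf3. In adipose tissue, canonical Wnt signalling is known as a brake on the formation of adipocytes from their progenitors, with Wnt10b as the ligand studied most in mice.

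The 250 bases before the RefSeq start of 5 members are shown because these genes carry the main contrasts below: Wnt9b and Wnt3 are neighbours that moved in opposite directions, Wnt10b is the ligand studied most in fat, Fzd4 had the largest change of the receptors, and Sfrp5 is an antagonist released by adipocytes. Sequences are from RefSeq on GRCm38.p6 and read 5′ to 3′ on the gene's strand. The gene coordinates given further on are from GENCODE, whose starts differ, so that the last 25 bases of the Wnt3 window and the last 11 of the Fzd4 window lie inside those genes. Capitals mark matches on either strand to the GC box GGGCGG and the CCAAT box CCAAT; the TCF/LEF core CTTTGA and the TATA box TATAAA were also searched on both strands and had no match in these 5 windows. Overlapping matches were counted separately.
Wnt9b (chr11:103749822-103750071, minus strand): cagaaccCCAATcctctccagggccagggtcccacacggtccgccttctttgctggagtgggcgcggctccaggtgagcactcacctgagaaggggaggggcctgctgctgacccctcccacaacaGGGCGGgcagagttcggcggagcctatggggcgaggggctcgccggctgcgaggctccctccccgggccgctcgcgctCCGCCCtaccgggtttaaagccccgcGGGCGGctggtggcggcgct
Wnt3 (chr11:103773925-103774174, plus strand): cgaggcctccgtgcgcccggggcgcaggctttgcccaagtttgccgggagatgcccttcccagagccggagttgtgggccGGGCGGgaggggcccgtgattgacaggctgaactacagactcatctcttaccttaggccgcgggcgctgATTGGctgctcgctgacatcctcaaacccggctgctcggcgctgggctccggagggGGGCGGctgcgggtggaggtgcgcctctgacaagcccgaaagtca
Wnt10b (chr15:98778151-98778400, minus strand): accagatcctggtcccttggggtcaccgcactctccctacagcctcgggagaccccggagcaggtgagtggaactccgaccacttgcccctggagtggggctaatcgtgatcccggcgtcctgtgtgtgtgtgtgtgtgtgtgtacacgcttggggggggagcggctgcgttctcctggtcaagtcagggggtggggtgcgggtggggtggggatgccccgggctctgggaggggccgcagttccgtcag
Fzd4 (chr7:89404116-89404365, plus strand): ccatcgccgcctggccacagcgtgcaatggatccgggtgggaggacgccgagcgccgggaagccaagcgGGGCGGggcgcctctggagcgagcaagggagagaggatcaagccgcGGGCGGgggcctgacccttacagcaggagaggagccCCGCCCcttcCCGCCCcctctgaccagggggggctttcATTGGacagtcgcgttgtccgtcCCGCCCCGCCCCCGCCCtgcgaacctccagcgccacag
Sfrp5 (chr19:42202253-42202502, minus strand): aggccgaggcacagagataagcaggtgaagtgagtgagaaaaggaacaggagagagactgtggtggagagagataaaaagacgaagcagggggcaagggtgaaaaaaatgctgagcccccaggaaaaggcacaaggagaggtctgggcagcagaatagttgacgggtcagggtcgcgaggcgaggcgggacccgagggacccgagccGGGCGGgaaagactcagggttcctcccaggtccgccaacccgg

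The Fzd4 window held 7 GC boxes and the Wnt9b window 3, against 2 in Wnt3, 1 in Sfrp5 and 0 in Wnt10b. RefSeq windows were found for 31 of the 48 members, 34 windows in all. A GC box stood in 24 of these 34 (70.6%), where 32.7% of all 32851 windows hold one, and the median share of G and C was 66.8% in the members' windows and 52.4% in all windows. The TCF/LEF core stood in 5 of the 34 (14.7%), against 13.8% of all windows. All windows together cover 27025 genes, more than the 21936 protein-coding genes of the count table, whereas the members are all protein-coding. The part of this difference in gene type was not tested. A match is a run of letters and shows no binding.

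The sequenced libraries totalled 43360208 to 63650016 counts in imBAT and 41025786 to 44983250 counts in sham. Values below are TMM-scaled CPM, that is counts set relative to a library total corrected for differences in RNA composition, and a gene was called when its p from edgeR's quasi-likelihood test, adjusted over all 26393 genes tested, was under 0.05. Marker genes of several cell types differed between the 2 groups of libraries. All 7 white adipocyte markers rose, with a summed level of 7108 to 14863.5 CPM in imBAT and 945 to 1692 CPM in sham, and all 7 T cell and 6 B cell markers fell, with sums of 147.7 to 449.6 and 204.7 to 548.5 CPM in imBAT against 861.1 to 1062 and 1314 to 1571 CPM in sham. Of 6 lymph node stroma markers 4 fell (249.6 to 567.9 CPM in imBAT, 985.1 to 1381 CPM in sham). Among these, Cr2 also stands in the B cell list, and Glycam1 alone averaged 235.0 CPM in imBAT and 883.1 CPM in sham. Cxcl13 was not called (means of 101.2 CPM in imBAT and 72.4 CPM in sham). Progenitor and fibroblast markers (6 of 7 higher; 2256 to 3585 CPM in imBAT, 603.1 to 776.8 CPM in sham), mammary epithelium (7 of 7; 662.7 to 1345 CPM in imBAT, 97.9 to 327.4 CPM in sham), mural cells (5 of 5; 717.2 to 1160 CPM in imBAT, 318.8 to 447.0 CPM in sham) and endothelium (4 of 5, with Pecam1 lower; 796.7 to 1009 CPM in imBAT, 598.8 to 669.6 CPM in sham) rose. Schwann cell markers (2 of 4 higher; 125.3 to 190.0 CPM in imBAT, 26.8 to 108.5 CPM in sham), macrophage markers (2 of 4 higher; 270.4 to 803.1 CPM in imBAT, 257.7 to 288.1 CPM in sham) and keratinocyte markers (1 of 5 higher and 1 lower; 4.96 to 8.56 CPM in imBAT, 4.54 to 5.55 CPM in sham) moved in part. Ccl21a and Krt1 were too low to test. Of all genes tested 43.5% were called in either direction, 24.3% higher and 19.3% lower. The Schwann cell, macrophage and keratinocyte lists, each with 50% of its tested genes called, lay near that share. In whole tissue, fewer cells of a type and less RNA per cell cannot be told apart, and the part of these cell types in the values below was not tested.

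Most measured Wnt family genes were higher in imBAT than in sham. Of the 48 members, 42 passed the filter on low counts, and 30 of these rose (71.4%), where 24.3% of all genes tested rose and 43.5% were called in either direction. Upper-quartile scaling, which moved the all-gene median to -0.25, gave 4722 genes higher and 8180 lower in place of 6407 and 5084, and 27 members higher and 2 lower. The 2 that fell (4.76%, against 19.3% of all genes tested) were both ligands, Wnt10a and Wnt3, and 10 were not called. The median log2 fold change over the 42 was 1.45, beside -0.01 over all genes tested. The groups did not overlap, with every imBAT library above every sham library, for 30 of the 42 (background 26.8%), and lay apart in the other direction for 1, Wnt10a (background 25.2%; 52.0% of all genes tested lay apart in either direction). A member that is low in sham and high in imBAT passes the filter through its imBAT values, so these counts describe the 42 and not the 48. Rspo4 and Wnt3a, which did not pass, also lay lower in every imBAT library than in any sham library, on few counts.

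**Figure D1:**
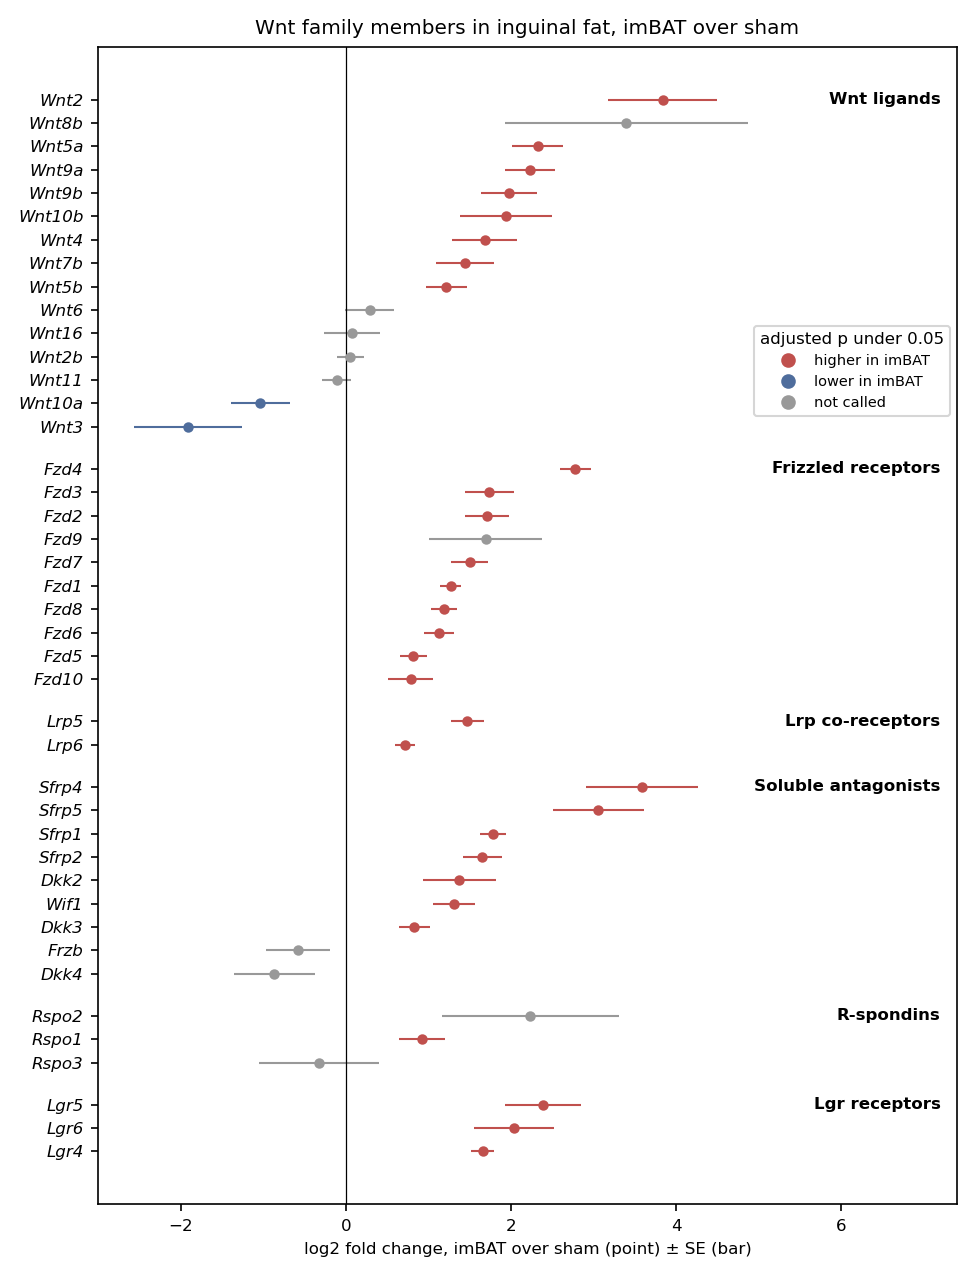
Log2 fold change of imBAT over sham (points, with bars for the SE of the edgeR fit) for the 42 members tested, grouped by role, with red for higher, blue for lower and grey for not called at an adjusted p under 0.05. All 3 Lgr receptors, both Lrp co-receptors and 9 of 10 Frizzled receptors were higher in imBAT. The 2 genes called lower, Wnt10a and Wnt3, are ligands. Of all genes tested, 24.3% were higher and 19.3% lower.

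Of the 19 ligands, 8 rose, 2 fell, 5 were not called and 4 were too low to test. Of the 15 tested, 53.3% rose and 13.3% fell, against 24.3% and 19.3% of all genes tested. Wnt2, a ligand known for its part in lung and placental vessel development, was at 5.79, 3.22, 10.4 and 3.12 CPM in imBAT replicates 1 to 4, against 0.57, 0.10 and 0.50 CPM in sham replicates 1 to 3. Every imBAT library exceeded every sham library, and the log2 fold change, 3.84 ± 0.66 (SE, edgeR adjusted p = 0.00313), was the largest of the 42 members. Its mean was 5.63 ± 3.41 CPM in imBAT (SD, n = 4) and 0.39 ± 0.26 CPM in sham (n = 3). The gene lies on chromosome 6 at 17988940 to 18030585 (GRCm38, minus strand).

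Wnt5a and Wnt5b, close relatives that act mostly through the branches independent of beta-catenin, rose together. Wnt5a was at 46.8, 32.7, 55.9 and 30.8 CPM in imBAT and at 10.7, 5.12 and 9.03 CPM in sham, a log2 fold change of 2.32 ± 0.31 (edgeR adjusted p = 0.00145). Wnt5b was at 20.4, 26.5, 16.9 and 19.4 CPM in imBAT and at 11.6, 5.96 and 9.26 CPM in sham, a log2 fold change of 1.22 ± 0.25 (edgeR adjusted p = 0.00548). Neither gene's groups overlapped. The imBAT libraries were ordered differently for the pair: Wnt5a was highest in replicate 3, where Wnt5b was lowest.

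Wnt4, which drives side branching of the mammary ducts under progesterone, was at 41.8, 54.3, 21.3 and 40.5 CPM in imBAT and at 19.6, 7.97 and 9.43 CPM in sham (log2 fold change 1.68 ± 0.39, edgeR adjusted p = 0.00959). The lowest imBAT library stood only just above the highest sham library. The summed mammary epithelium markers were likewise highest in imBAT replicate 2 and sham replicate 1, and among them Krt18 was at 273.3, 422.3, 204.7 and 197.8 CPM in imBAT and at 84.9, 23.3 and 50.8 CPM in sham. The summed mural, endothelial and B cell markers were also highest in imBAT replicate 2 and sham replicate 1. The part of these cell types in the Wnt4 difference was not tested. Wnt7b, a ligand that epithelia release, was at 21.8, 33.7, 31.5 and 63.5 CPM in imBAT and at 13.7, 10.5 and 17.3 CPM in sham (log2 fold change 1.44 ± 0.35, edgeR adjusted p = 0.0119). Here imBAT replicate 4 was the highest, and the groups did not overlap.

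Wnt10b, the ligand known to hold back adipocyte formation in mice, was at 4.85, 2.00, 7.38 and 3.14 CPM in imBAT and at 0.60, 0.78 and 1.98 CPM in sham. The groups touched without overlapping, since imBAT replicate 2 and sham replicate 3 differed by less than 0.02 CPM. The log2 fold change was 1.94 ± 0.55 (edgeR adjusted p = 0.0221). It was 2.64 without sham replicate 3, and the call was lost without sham replicate 1 or 2 (adjusted p = 0.0666 and 0.0803). Wnt10a, its closest relative, moved the other way: it was at 3.63, 4.22, 1.33 and 2.25 CPM in imBAT and at 6.06, 4.96 and 6.64 CPM in sham. No imBAT library reached the lowest sham library, and the log2 fold change was -1.03 ± 0.36 (edgeR adjusted p = 0.0446). The call was lost without any one sham library, or without imBAT replicate 1 or 4 (adjusted p up to 0.133).

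Wnt9a and Wnt9b rose. Wnt9a was at 5.05, 7.52, 9.49 and 7.07 CPM in imBAT and at 2.06, 1.04 and 1.55 CPM in sham (log2 fold change 2.23 ± 0.30, edgeR adjusted p = 0.00151). Wnt9b, known for its part in kidney tubule and face development, was at 1.38, 1.39, 1.21 and 1.39 CPM in imBAT and at 0.27, 0.52 and 0.23 CPM in sham (log2 fold change 1.97 ± 0.34, edgeR adjusted p = 0.00308). Both kept every imBAT library above every sham library, and the imBAT values of Wnt9b were close together. Wnt3, the canonical ligand beside Wnt9b in the genome, was at 0.15, 0.51, 0.05 and 0.29 CPM in imBAT and at 0.97, 0.44 and 1.48 CPM in sham. The groups overlapped through imBAT replicate 2 and sham replicate 2. The log2 fold change of Wnt3 was -1.91 ± 0.66 (edgeR adjusted p = 0.0431), it was -2.55 without imBAT replicate 2, and the call was lost without any one of sham replicates 1 and 3 and imBAT replicates 1, 3 and 4 (adjusted p up to 0.174). Wnt3 and Wnt10a were both lowest in imBAT replicate 3, as were the summed T cell, B cell, lymph node stroma and mammary epithelium markers. In sham both genes were lowest in replicate 2, as the B cell and mammary epithelium sums were. The T cell sum was lowest in sham replicate 1 and the lymph node stroma sum in sham replicate 3. The part of these cell types in the Wnt3 and Wnt10a values was not tested.

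Several mouse Wnt genes lie side by side, and 4 such pairs are described here, in 2 of which a partner was too low to test. On chromosome 11, Wnt9b (103727364 to 103749821, minus strand) and Wnt3 (103774150 to 103817957, plus strand) stand head to head with 24328 bases between them; Wnt9b rose and Wnt3 fell. On the same chromosome Wnt9a, which rose, stands head to head with Wnt3a across 16175 bases, and Wnt3a had 0 counts in the 4 imBAT libraries together and 2, 2 and 1 counts in the sham libraries. A count of 0 allows up to 0.0152 CPM over the imBAT libraries (3 counts). On chromosome 1, Wnt6 and Wnt10a follow each other on the plus strand 6193 bases apart; Wnt10a fell, and Wnt6, at 4.19 ± 0.63 CPM in imBAT (SD, n = 4) and 3.44 ± 1.56 CPM in sham (n = 3), was not called (edgeR adjusted p = 0.450), but without sham replicate 1 its log2 fold change was 0.73 and it was called (adjusted p = 0.0455). On chromosome 15, Wnt10b stands head to head with Wnt1 across 11706 bases, and Wnt1 had 65, 8, 13 and 2 counts in imBAT and 2, 1 and 8 counts in sham, too few to test. These pairs were set side by side after their values were seen, and the difference within a pair was not tested.

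The other ligands gave no call. Wnt11, of the beta-catenin-independent branch, was at 10.8, 12.8, 12.1 and 16.7 CPM in imBAT and at 16.1, 12.8 and 13.5 CPM in sham (log2 fold change -0.11 ± 0.17, edgeR adjusted p = 0.638). Wnt2b was at 7.56 ± 0.85 CPM in imBAT and 7.28 ± 0.66 CPM in sham (log2 fold change 0.06 ± 0.16), and Wnt16 at 1.11 ± 0.27 and 1.05 ± 0.39 CPM in the same order of groups (0.07 ± 0.34; SD, n = 4 imBAT and 3 sham). For these 3 genes the values of the groups lay among each other, and the standard errors bound the difference more tightly for Wnt2b and Wnt11 than for Wnt16. Wnt8b was not called (log2 fold change 3.39, edgeR adjusted p = 0.0920) and rested on 1 library: imBAT replicate 1 held 22.1 CPM, the other imBAT libraries 0.55 to 0.86 CPM and the sham libraries 0.31 to 0.74 CPM. Leaving that library out gave a log2 fold change of 0.22. Wnt7a and Wnt8a had at most 4 and 16 counts in any library and were not tested.

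**Figure D2:**
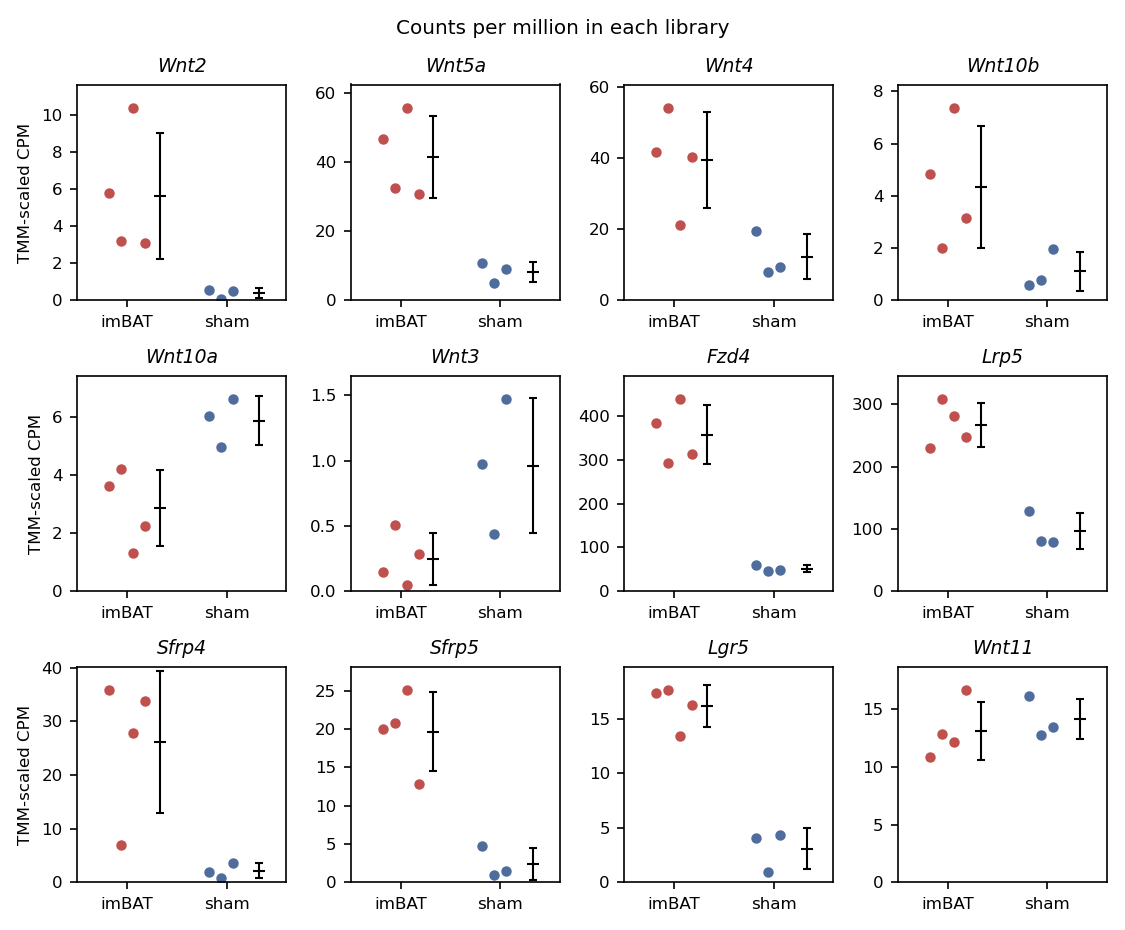
TMM-scaled CPM of 12 members in each library, with imBAT (red, n = 4) left of sham (blue, n = 3), each axis starting at 0; points are libraries, and the black bar is the group mean with its SD. Fzd4 stood at 291.3 to 438.8 CPM in imBAT and 46.2 to 60.4 CPM in sham, Wnt10a lay lower in all imBAT libraries, and the groups of Wnt3 and Wnt11 overlapped.

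Of the 10 Frizzled receptors, the membrane proteins that bind Wnt, 9 rose (90%, against 24.3% of all genes tested) and 1, Fzd9, was not called. Fzd4, which also binds the non-Wnt ligand norrin in blood vessels, changed most: it was at 384.5, 291.3, 438.8 and 312.9 CPM in imBAT and at 60.4, 46.2 and 49.3 CPM in sham. The imBAT libraries lay far above the sham libraries, with a log2 fold change of 2.78 ± 0.18, a 6.87-fold rise (edgeR adjusted p = 0.000558, the smallest among the 42 members). Fzd4 has 2 exons on chromosome 7 at 89404355 to 89413134 (GRCm38, plus strand). Tspan12, the tetraspanin that assists Fzd4 in norrin signalling, rose 6.14-fold beside it (69.8 ± 17.5 CPM in imBAT, 11.4 ± 4.68 CPM in sham; edgeR adjusted p = 0.00126). Norrin itself (Ndp) rose at a very low level, with 0.38 to 1.35 CPM in imBAT against 0.08 to 0.22 CPM in sham (log2 fold change 2.15 ± 0.58, edgeR adjusted p = 0.0167). The 5 endothelial markers had a median log2 fold change of 0.97, and the 7 white adipocyte markers one of 3.10. In imBAT, Fzd4, Tspan12 and the summed adipocyte markers were highest in replicate 3 and lowest in replicate 2, where the endothelial sum was highest. In sham, Fzd4 and the endothelial sum were highest in replicate 1, and the adipocyte sum in replicate 3. The part of either cell type in the Fzd4 values was not tested.

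Fzd1 and Fzd7 followed Fzd4 among the receptors in level per kilobase of exon in imBAT. Fzd1 was at 86.2, 74.7, 96.2 and 72.9 CPM in imBAT and at 37.8, 34.1 and 30.8 CPM in sham (log2 fold change 1.27 ± 0.13, edgeR adjusted p = 0.000824). Fzd7 was at 88.4, 109.2, 93.6 and 83.8 CPM in imBAT and at 43.4, 21.6 and 34.4 CPM in sham (log2 fold change 1.50 ± 0.22, edgeR adjusted p = 0.00199). Fzd2, a relative of both, was at 22.5, 14.0, 21.1 and 15.2 CPM in imBAT and at 6.81, 3.64 and 6.29 CPM in sham (log2 fold change 1.71 ± 0.27, edgeR adjusted p = 0.00229). None of these groups overlapped.

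Fzd3 and Fzd6, receptors of planar cell polarity, rose as well. Fzd3 was at 17.1, 18.6, 22.0 and 15.96 CPM in imBAT and at 8.42, 3.41 and 4.78 CPM in sham (log2 fold change 1.74 ± 0.30, edgeR adjusted p = 0.00306), and Fzd6 at 20.6, 24.5, 15.6 and 22.9 CPM in imBAT and at 9.92, 8.15 and 10.6 CPM in sham (log2 fold change 1.13 ± 0.18, edgeR adjusted p = 0.00251). Fzd8 was at 17.3, 16.2, 21.9 and 17.8 CPM in imBAT and at 9.24, 7.13 and 7.76 CPM in sham (log2 fold change 1.19 ± 0.16), and its relative Fzd5 at 27.1, 20.5, 17.4 and 22.5 CPM in imBAT and at 13.4, 11.7 and 12.2 CPM in sham (log2 fold change 0.82 ± 0.16; edgeR adjusted p = 0.00147 and 0.00514). In these 4 genes each imBAT library exceeded each sham library. Fzd10 was at 8.52, 6.89, 5.48 and 8.22 CPM in imBAT and at 5.90, 3.84 and 2.93 CPM in sham, with overlapping groups (log2 fold change 0.79 ± 0.27, edgeR adjusted p = 0.0442), a call that did not hold without sham replicate 2 or 3, or without imBAT replicate 1, 2 or 4 (adjusted p up to 0.148). Fzd9 reached 3.63 CPM in imBAT replicate 2, stood between 0.57 and 1.08 CPM in the other imBAT libraries and between 0.38 and 0.56 CPM in sham (log2 fold change 1.69 ± 0.68, edgeR adjusted p = 0.0739). Without imBAT replicate 2 its log2 fold change was 0.74 (adjusted p = 0.155), and without imBAT replicate 1 it was 1.97 and passed the threshold (adjusted p = 0.0467).

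Set per kilobase of exon, so that genes of different length can be compared, the makeup of the Frizzled mRNA of the whole tissue differed between the groups. Fzd4 stood at 53.1 ± 10.1 CPM per kilobase in imBAT (SD, n = 4) and 7.73 ± 1.11 in sham (n = 3), Fzd7 at 20.7 ± 2.44 in imBAT and 7.31 ± 2.42 in sham, and Fzd1 at 19.7 ± 2.59 in imBAT and 8.15 ± 0.83 in sham. In sham these 3 receptors did not differ beyond their spread, and in imBAT Fzd4 stood first of all 48 members while Fzd7 and Fzd1 did not differ beyond their spread. Fzd4 made up 48.2, 41.3, 51.1 and 45.7% of the summed Frizzled level in imBAT, against 23.9, 25.5 and 23.8% in sham, and the share of Fzd1 was 17.3 ± 0.44% in imBAT and 26.0 ± 3.60% in sham. These shares do not depend on the scaling of the libraries. The part of the cell types of the tissue in them was not tested. With the longest transcript as gene length in place of all exons, the mean share of Fzd4 moved by less than its SD in both groups.

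**Figure D3:**
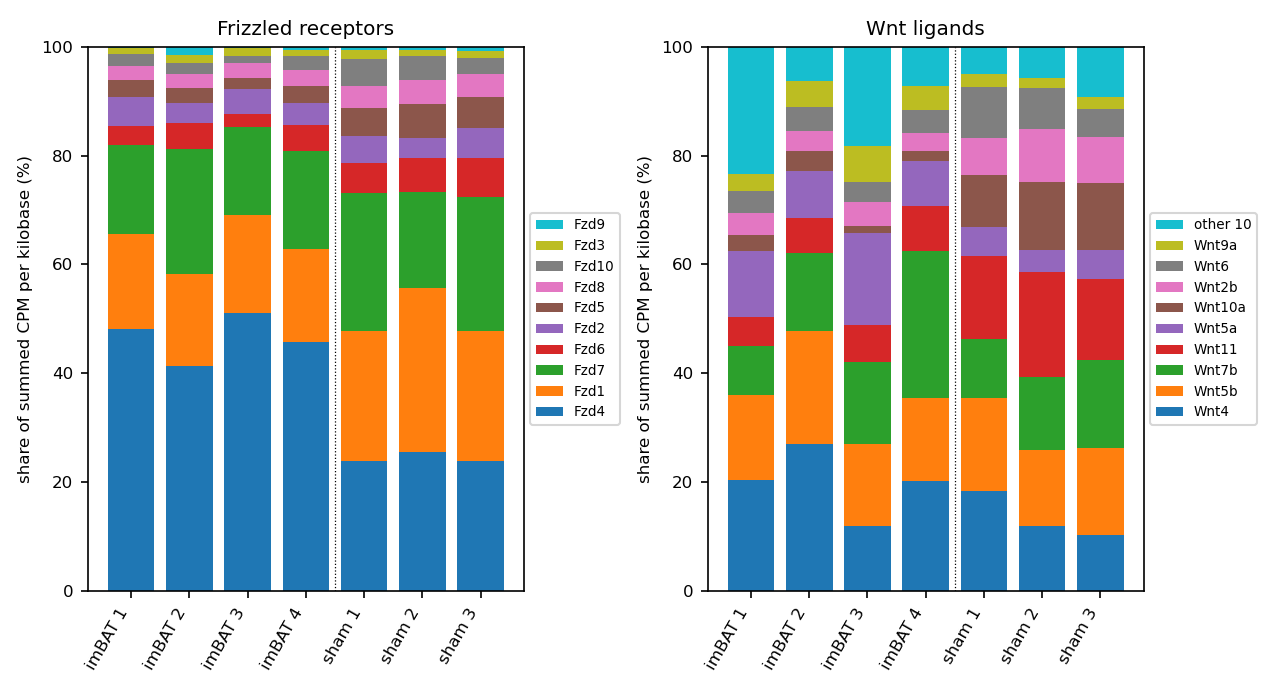
Share (percent) of each Frizzled receptor (left) and each Wnt ligand (right) in the summed CPM per kilobase of its class, by library, with imBAT left of the dotted line and sham right of it; the 10 least abundant ligands are joined. Fzd4 took 41.3 to 51.1% of the Frizzled sum in imBAT and 23.8 to 25.5% in sham. Wnt10a and Wnt11 took smaller shares of the ligand sum in every imBAT library. The joined ligands include Wnt8b, at 12.9% in imBAT replicate 1.

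The summed ligand level was 46.9 ± 2.93 CPM per kilobase in imBAT and 21.2 ± 4.83 in sham, with no overlap. Wnt8b made up 12.9% of this sum in imBAT replicate 1 and 0.33 to 0.58% in the other imBAT libraries. Wnt4, Wnt5b, Wnt7b and Wnt5a led it in imBAT, and Wnt11, Wnt5b, Wnt4, Wnt7b and Wnt10a in sham. The share of Wnt5a was 8.20 to 16.8% in imBAT and 4.09 to 5.36% in sham. Wnt11, whose own level was not called, held 6.77 ± 1.28% of the ligand sum in imBAT and 16.5 ± 2.44% in sham, and Wnt10a held 2.43 ± 1.04% in imBAT and 11.5 ± 1.64% in sham. In imBAT, Wnt4 (9.41 ± 3.24 CPM per kilobase), Wnt5b (7.83 ± 1.53) and Wnt7b (7.68 ± 3.68) did not differ beyond their spread, nor did Wnt11 (3.41 ± 0.43), Wnt5b (3.37 ± 1.07), Wnt4 (2.94 ± 1.51) and Wnt7b (2.83 ± 0.70) in sham. With the longest transcript as length, Wnt7b stood above Wnt4 in imBAT (means of 11.1 and 9.41).

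Both Lrp co-receptors rose (100%, against 24.3% of all genes tested). Lrp5, known for its effect on bone mass, was at 230.5, 309.1, 280.6 and 248.2 CPM in imBAT and at 129.6, 81.0 and 78.8 CPM in sham (log2 fold change 1.47 ± 0.20, edgeR adjusted p = 0.00151). Lrp6 was at 308.1, 276.2, 338.6 and 324.3 CPM in imBAT and at 216.8, 170.0 and 184.6 CPM in sham (log2 fold change 0.71 ± 0.12, edgeR adjusted p = 0.00302). Per kilobase, Lrp5 made up 51.2 to 61.1% of the pair in imBAT and 37.5 to 45.6% in sham, with no overlap. Which of the pair was the higher in imBAT depends on the length used: over all exons Lrp5 averaged 27.4 and Lrp6 22.8 CPM per kilobase, and over the longest transcript 30.03 and 33.3.

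Of the 10 soluble antagonists, 7 rose, none fell, 2 were not called and Dkk1 was too low to test. Of the 9 tested, 77.8% rose and 0% fell, against 24.3% and 19.3% of all genes tested. Sfrp4 was at 35.9, 6.93, 27.9 and 33.8 CPM in imBAT and at 2.01, 0.82 and 3.67 CPM in sham, a log2 fold change of 3.59 ± 0.67 (edgeR adjusted p = 0.00431), and 4.21 without sham replicate 3. The groups did not overlap, but imBAT replicate 2 stood well below the other 3. Pi16, a marker of the adventitial fibroblasts of fat, was at 155.3, 34.2, 134.5 and 97.0 CPM in imBAT and at 7.71, 2.55 and 12.7 CPM in sham, lowest in the same library of each group as Sfrp4. Of the 7 progenitor and fibroblast markers, 6 were lowest in imBAT replicate 2 and 6 in sham replicate 2, the exceptions being Col1a1 in imBAT and Dpp4 in sham; the sum of the list, in which Col1a1 is the largest term in imBAT, was lowest in imBAT replicate 4. The summed white adipocyte markers were lowest in the same libraries as Sfrp4, at 7108 CPM in imBAT replicate 2 and 945 CPM in sham replicate 2. The part of either cell type in the Sfrp4 values was not tested. Sfrp4 lies on chromosome 13 at 19623104 to 19632994 (GRCm38, plus strand).

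Sfrp5 was at 19.96, 20.8, 25.2 and 12.8 CPM in imBAT and at 4.77, 0.92 and 1.44 CPM in sham, a log2 fold change of 3.05 ± 0.55 (edgeR adjusted p = 0.00372), and 4.06 without sham replicate 1, which held most of the sham signal. Sfrp1 was at 31.9, 23.1, 24.3 and 28.1 CPM in imBAT and at 8.42, 6.63 and 8.37 CPM in sham (log2 fold change 1.78 ± 0.16, edgeR adjusted p = 0.000803). Sfrp2 was at 25.1, 13.6, 26.9 and 25.8 CPM in imBAT and at 7.43, 7.57 and 6.77 CPM in sham (log2 fold change 1.65 ± 0.24, edgeR adjusted p = 0.00178). All 3 kept the groups apart, and Sfrp2, like Sfrp4, was lowest in imBAT replicate 2. Per kilobase, Sfrp2 (10.6 ± 2.89 in imBAT, 3.37 ± 0.20 in sham) and Sfrp5 (10.4 ± 2.69 in imBAT, 1.25 ± 1.10 in sham) led the antagonists in imBAT and did not differ beyond their spread there.

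Wif1, which binds Wnt proteins directly, was at 5.94, 8.03, 4.65 and 8.63 CPM in imBAT and at 3.05, 2.39 and 2.81 CPM in sham (log2 fold change 1.31 ± 0.25, edgeR adjusted p = 0.00460). Dkk2, which acts on the Lrp co-receptors, was at 3.04, 2.04, 2.61 and 4.75 CPM in imBAT and at 0.95, 0.64 and 1.98 CPM in sham (log2 fold change 1.38 ± 0.44, edgeR adjusted p = 0.0324). The Dkk2 groups nearly met, leaving out sham replicate 1 or 2, or imBAT replicate 1 or 4, ended its call (adjusted p up to 0.103), and its log2 fold change was 1.97 without sham replicate 3. Dkk3, the divergent member of its family, was at 13.5, 16.6, 15.8 and 19.9 CPM in imBAT and at 10.5, 7.19 and 10.1 CPM in sham (log2 fold change 0.83 ± 0.19, edgeR adjusted p = 0.00887). As a share of the antagonist sum per kilobase, Dkk3 was lower in every imBAT library (8.76 to 14.9%) than in any sham library (22.5 to 24.8%). Frzb (0.81 ± 0.35 CPM in imBAT, 1.22 ± 0.28 CPM in sham) and Dkk4 (0.15 ± 0.08 CPM in imBAT, 0.28 ± 0.06 CPM in sham) had log2 fold changes of -0.58 and -0.87 and were not called (edgeR adjusted p = 0.253 and 0.181).

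The 3 receptors of R-spondins rose (100%, against 24.3% of all genes tested). Of the 4 R-spondins, Rspo1 rose, Rspo2 and Rspo3 were not called and Rspo4 was too low to test. The share of the 3 tested R-spondins that rose, 33.3%, lay near that of all genes tested. Lgr4 was at 44.7, 52.3, 57.5 and 59.2 CPM in imBAT and at 18.5, 14.7 and 17.7 CPM in sham (log2 fold change 1.66 ± 0.14, edgeR adjusted p = 0.000767). Lgr5, a stem cell marker of gut and hair follicle, was at 17.4, 17.7, 13.5 and 16.3 CPM in imBAT and at 4.07, 0.92 and 4.33 CPM in sham (log2 fold change 2.39 ± 0.46, edgeR adjusted p = 0.00466). Lgr6, a marker of epithelial progenitors in skin, was at 36.9, 62.9, 36.6 and 37.9 CPM in imBAT and at 18.9, 3.86 and 9.26 CPM in sham (log2 fold change 2.04 ± 0.48, edgeR adjusted p = 0.0103). Its log2 fold change was 2.74 without sham replicate 1, and its call was lost without the expression filter (adjusted p = 0.0574). No groups overlapped. Lgr6 was highest in imBAT replicate 2 and sham replicate 1. In each group these libraries also had the highest sums of mammary epithelium, mural, endothelial and B cell markers. The part of these cell types in the Lgr6 values was not tested.

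Rspo1 was at 6.36, 3.91, 3.66 and 3.24 CPM in imBAT and at 2.45, 2.49 and 1.86 CPM in sham, with no overlap (log2 fold change 0.92 ± 0.28, edgeR adjusted p = 0.0260). Its call was lost without any one sham library (adjusted p up to 0.101). Rspo2 and Rspo3 stood under 1 CPM in every library, at 0.39 ± 0.33 and 0.21 ± 0.13 CPM in imBAT against 0.08 ± 0.10 and 0.26 ± 0.22 CPM in sham, and were not called (edgeR adjusted p = 0.122 and 0.740). Rspo4, with 8, 7, 0 and 2 counts in imBAT and 8, 13 and 18 counts in sham, was not tested. Its CPM did not overlap, at 0 to 0.147 in imBAT and 0.177 to 0.349 in sham.

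Around the family, 86 further genes of the pathway were examined, of which 84 were tested; 47 rose (56%, against 24.3% of all genes tested), 5 fell (5.95%, against 19.3%) and 32 were not called, with a median log2 fold change of 0.53. Under upper-quartile scaling 36 rose and 14 fell. All 6 tested genes listed under Wnt secretion rose (100%, against 24.3% of all genes tested). Porcn, the acyltransferase, was at 15.7 ± 2.81 CPM in imBAT and 4.98 ± 1.02 CPM in sham (log2 fold change 1.65 ± 0.21, edgeR adjusted p = 0.00125), and Wls at 78.5 ± 14.0 CPM in imBAT and 38.0 ± 2.69 CPM in sham (1.05 ± 0.15, edgeR adjusted p = 0.00177). The retromer genes Vps35 (1.47-fold) and Vps26a (1.35-fold) and Tmed5 (1.49-fold) also rose. Tinagl1 (3.18-fold) completed the list, but it is a secreted matrix protein and not part of the Wnt export machinery. The calls of Vps35 and Vps26a were lost under upper-quartile scaling (edgeR adjusted p = 0.0876 and 0.150) and without sham replicate 2 (0.0742 and 0.0611). That of Vps35 was also lost without sham replicate 3 (0.0542). Notum, the enzyme that strips the lipid from Wnt, was too low to test, with 20 counts in the imBAT libraries and 25 in the sham libraries together.

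Of 27 other receptors and modulators, 17 rose (63%, against 24.3% of all genes tested), none fell (against 19.3%) and 10 were not called. Beside Tspan12, the Wnt5a receptor Ror2 (3.78-fold), the atypical receptor Ryk (2.67-fold), Adgra2 of the brain endothelial Wnt7 response (2.36-fold) and the glypican Gpc4 (5.99-fold) had the smallest p. Rnf43, which removes Frizzled receptors, was at 23.5 ± 5.80 CPM in imBAT and 18.995 ± 5.30 CPM in sham and was not called (edgeR adjusted p = 0.317).

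In the cytoplasm 10 of 22 genes rose and 1 fell, so that 50% were called, near the 43.5% of all genes tested, with a median log2 fold change of 0.22, beside 1.14 for the receptors and modulators. Ctnnb1, beta-catenin, was at 330.7 ± 11.8 CPM in imBAT and 245.4 ± 26.3 CPM in sham (log2 fold change 0.43 ± 0.10, edgeR adjusted p = 0.0111), a call lost under upper-quartile scaling (adjusted p = 0.118) and without sham replicate 2 or 3 (adjusted p = 0.0602 and 0.0520). Plcb1 (2.72-fold), Ctnnbip1, an inhibitor of beta-catenin (2.19-fold), Daam1 (1.68-fold), Csnk1e (1.66-fold) and Rac1 (1.46-fold) rose with the smallest p, and Camk2a fell by 0.67 on the log2 scale, a call that any one of 4 libraries ended when left out, replicates 2 and 3 of either group (adjusted p up to 0.149).

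The nuclear partners of beta-catenin split. Of 14 nuclear genes tested, 5 rose (35.7%, against 24.3% of all genes tested) and 4 fell (28.6%, against 19.3%). Tcf7 was at 162.3, 172.4, 51.0 and 134.4 CPM in imBAT and at 318.3, 390.3 and 431.2 CPM in sham (log2 fold change -1.55 ± 0.36, edgeR adjusted p = 0.00932), and Lef1 at 108.3, 111.0, 29.7 and 80.4 CPM in imBAT and at 180.4, 260.9 and 266.6 CPM in sham (-1.52 ± 0.39, edgeR adjusted p = 0.0146). Both calls were lost without the expression filter (adjusted p = 0.0522 for Tcf7 and 0.0796 for Lef1), and that of Lef1 when sham replicate 3 was left out (0.0511). Both are strongly expressed in T lymphocytes, and both were lowest in imBAT replicate 3 and lowest in sham replicate 1, as the summed T cell markers were (147.7 CPM and 861.1 CPM); the part of T cells in these falls was not tested. Tcf7l1 (53.8 ± 5.02 CPM in imBAT, 21.9 ± 2.92 CPM in sham) and Tcf7l2 (116.2 ± 7.32 CPM in imBAT, 51.4 ± 14.7 CPM in sham) rose by 1.30 ± 0.13 and 1.18 ± 0.18 on the log2 scale (edgeR adjusted p = 0.000816 and 0.00198). Pygo1 (3.39-fold), Tle1 (1.57-fold) and Bcl9l (1.50-fold) rose, and Tle4 and Chd8 fell by 0.59 and 0.36 on the log2 scale; the Chd8 call was lost without sham replicate 2 or 3 (adjusted p = 0.104 and 0.0833).

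Genes that Wnt signalling is known to induce did not move as one. Axin2, the feedback inhibitor most used as a readout of the canonical branch, was at 47.6, 34.4, 34.5 and 39.3 CPM in imBAT and at 36.8, 33.4 and 41.1 CPM in sham, with groups lying among each other (log2 fold change 0.07 ± 0.14, edgeR adjusted p = 0.710). Of 18 feedback and target genes 17 were tested. Of these 9 rose (52.9%, against 24.3% of all genes tested) and 2, Tcf7 and Lef1 again, fell (11.8%, against 19.3%). Apcdd1, a membrane inhibitor of Wnt signalling, rose 11.5-fold (171.0 ± 34.7 CPM in imBAT, 14.8 ± 8.94 CPM in sham; edgeR adjusted p = 0.00102), and Nkd1, a feedback inhibitor acting on Dishevelled, rose 2.26-fold. Twist1 (6.44-fold), Fst (7.202-fold) and Cthrc1 (5.28-fold), which are also genes of mesenchymal cells, were the others with the smallest p.

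**Figure D4:**
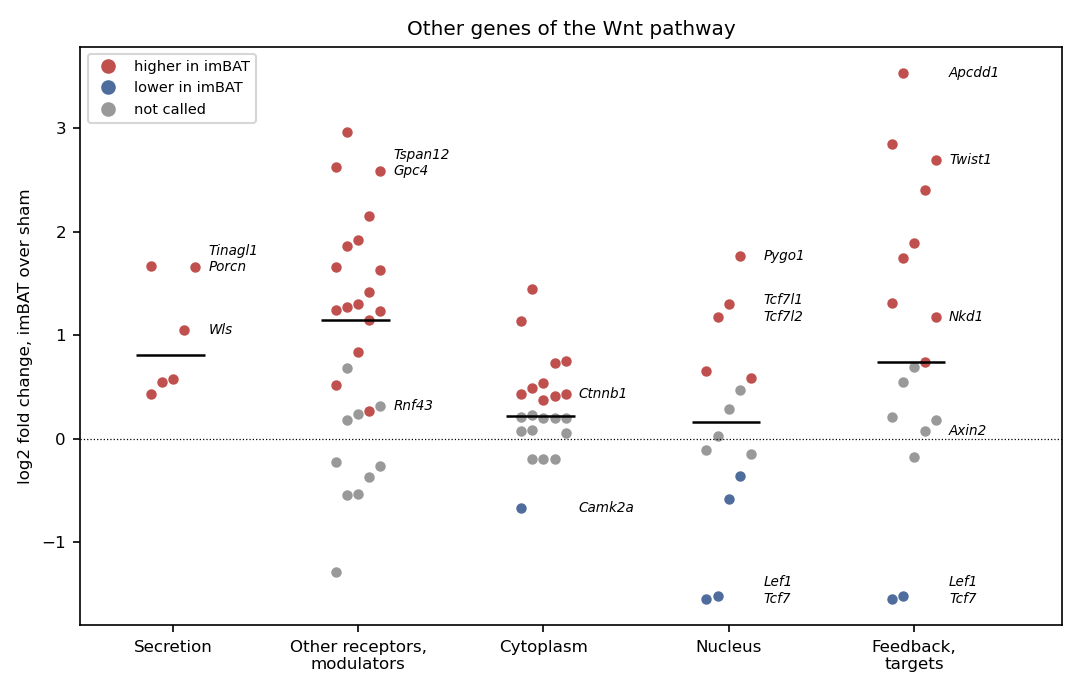
Log2 fold change of imBAT over sham for the tested genes of the wider Wnt pathway, by place in the pathway, with red for higher, blue for lower and grey for not called in edgeR; black bars are medians, and the dotted line is the median of all genes tested. All tested genes of the secretion list, which includes the matrix protein gene Tinagl1, lay above the line. The median of the cytoplasmic genes was 0.22, with single genes between Camk2a at -0.67 and Plcb1 at 1.44. Tcf7 and Lef1, which stand in both the nuclear and the target list, lay at -1.55 and -1.52.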

How the data were processed

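RNA of inguinal fat was sequenced in 7 libraries. Per the labels' protocols, STAR 2.7.9a was the aligner and Ensembl 101 (primary assembly) the target. The submitters' processing notes also name Salmon 1.5.2, featureCounts 2.0.3, limma, Subread and edgeR without saying what each did. The authors deposited raw counts per gene. The strand setting is not given in the sources used here, so the 7 members with an exon shared with a gene on the opposite strand (Fzd5, Fzd6, Rspo3, Sfrp2, Wnt11, Wnt5a, Wnt7b; at most 17.8% of their exon bases) may share reads with it.

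Repeated gene rows (287 of 55774) were dropped. edgeR 4.0.16 in R 4.3.3 was run with filterByExpr (minimum count 10), TMM scaling, a robust quasi-likelihood F test of group alone (5 residual degrees of freedom) and Benjamini-Hochberg adjustment; the SE is the log2 fold change divided by the square root of F. Steps were tested on simulated data. Coordinates and exon lengths are from GENCODE M21 (GRCm38). No pair of libraries of a group agreed within sampling noise (chi-square per degree of freedom 22.8 to 245.6).

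Groups came from the treatment label and replicate numbers from accession order. Members and lists were chosen with earlier results of these data known. Values in every library are given for called members with a mean of at least 1 CPM or groups apart; Wnt3, Wnt11, Wnt8b, Fzd9, Rspo4, Wnt3a, Wnt1, Axin2, Tcf7 and Lef1, the marker genes Krt18 and Pi16, Scd1 (a neighbour of Wnt8b), the neighbouring gene pairs and the promoters printed, and the pathway genes Ndp and Tmed5 were added after their values were seen. Of the pathway list, up to 5 called genes per direction and sub-list with the smallest p were named, with 9 genes fixed by name. The alternatives tried were 2 other scalings (upper-quartile, RLE), 2 other filters (none; 1 CPM or more in any 3 libraries), limma 3.58.1 (voom, quality weights), DESeq2 1.42.0, a block for the number in the titles, each library left out in turn, the longest transcript as gene length, and an adjusted p under 0.10.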

Additional observations from a re-analysis of the deposited data

Results flagged for a closer look

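In 5 of 45 members with at least 10 counts in the imBAT libraries, 1 of the 4 imBAT libraries stood apart from the other 3 by Dixon's criterion, which chance meets in about 1 in 20 groups. Wnt8b was at 22.1 CPM in imBAT replicate 1 and at most 0.86 CPM in the other imBAT libraries and 0.74 CPM in sham. Wnt1, too low to test, had 65 counts in the same library and at most 13 in any other. Wnt8b lies 85592 bases from Scd1 on chromosome 19; Scd1 was at 22887, 20777, 49576.5 and 3391 CPM in imBAT replicates 1 to 4 and 280.4 to 410.5 CPM in sham, so the library highest for Scd1 was not the one highest for Wnt8b. Fzd9 was at 3.63 CPM and Lgr6 at 62.9 CPM in imBAT replicate 2, above the other 3, and Sfrp2 was at 13.6 CPM in that library, below the other 3. Wnt9b was at 1.21 CPM in imBAT replicate 3, below 1.38 to 1.39 CPM in the others, a gap of less than 0.2 CPM.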

How the results depend on the processing

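Of the 32 called members, 23 stayed called in the same direction under all 14 alternatives that refitted the data, and 9 lost their call under at least 1 of them (Wnt3 was tested under 13 and not under the filter of 1 CPM in 3 libraries): Dkk2, Fzd10, Rspo1, Wnt10a, Wnt10b, Wnt3, Wnt4, Wnt7b and Lgr6. Under upper-quartile scaling the all-gene median was -0.25 in place of -0.01, with 27 members higher and 2 lower, with 8180 genes lower in all and 36 pathway genes higher and 14 lower; Wnt16, Wnt2b and Axin2, which were not called, then stood at -0.16, -0.18 and -0.17. Without an expression filter Lgr6, Tcf7, Lef1 and Camk2a were not called (adjusted p = 0.0574, 0.0522, 0.0796 and 0.0528 in edgeR) and 2 pathway genes were lower; with at least 1 CPM in 3 libraries 1 member was lower. With voom Wnt16 stood at -0.014 and Wnt2b at -0.00070. DESeq2 called 31 members higher and 2 lower, with Fzd9 added. Leaving out 1 library gave 7519 to 11403 genes called and 3024 to 5097 lower, 26 to 30 members higher and 0 to 2 lower, and 2 to 5 pathway genes lower. It also turned uncalled values: Wnt11 -0.24 to 0.00051, Wnt16 -0.19 to 0.35, Wnt2b -0.035 to 0.13, Rspo3 -0.72 to 0.54, and Axin2 -0.041 to 0.15. The labels do not say what the numbers that open the titles mean, so they served as a block only in an alternative. Deviations from the group means correlated at 0.10, 0.11 and -0.01 for equal numbers. Sham replicates 1 and 2 correlated best with the imBAT library of their own number and sham replicate 3 did not. With so few libraries, these correlations cannot settle whether equal numbers share an origin. With the numbers as a block, 27 members were higher and 2 lower, and 10853 genes were called. Fzd10, Rspo1, Wnt4 and Wnt7b were then not called (edgeR adjusted p = 0.102, 0.0741, 0.0504 and 0.0584), while Rspo2 was (0.0299). The causes of these changes were not tested. Members under 1 CPM rest on few counts, which limits what can be said of Wnt9b, Wnt3, Rspo2, Rspo3, Dkk4 and Frzb.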
